A study of Mus musculus with 4 samples.

Results

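The sterol synthesis genes described here are Hmgcs1, Idi1, Fdps, Sqle, Lss, Cyp51 and Dhcr7, which encode enzymes of the route from acetyl-CoA to cholesterol. They were taken as a list of 7 gene symbols and matched to array probe sets that the platform table assigns to a single gene. The list was chosen with earlier results of these data known. Its counts, set beside shares of all genes, therefore describe the list and are not an independent test. All 7 were found, on 17 probe sets, among 18193 genes on 34945 such probe sets. RNA from carbon tetrachloride-treated mouse livers was compared between mice given G-CSF (granulocyte colony-stimulating factor, which expands neutrophils and moves marrow cells into the blood) and mice given its vehicle. All C57BL/6 mice had received the liver toxin carbon tetrachloride in 30 injections of 1 ml/kg. During the last 7 days the G-CSF group was given recombinant human G-CSF at 100 µg/kg, and the PBS group was given phosphate-buffered saline with 0.1% mouse serum albumin. Each group has 2 arrays, replicates 1 and 2, of total RNA. The labels give liver as tissue, with bone marrow-derived cells entered under cell type, give no sort, and do not say whether the replicates are separate or pooled animals, so that p-values measure only the spread between arrays.

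Cholesterol synthesis first builds isoprenoid units through mevalonate, joins them to squalene, closes squalene to lanosterol and then trims lanosterol to cholesterol. The liver is a main site of this route, and dividing cells also use it to build membranes. When membrane sterol is low, the SCAP protein escorts the SREBP precursors from the endoplasmic reticulum for cleavage, and the released factor raises most of the genes of the route. The INSIG proteins hold SCAP back when sterol is plentiful. SREBP binds the sterol regulatory element and works with NF-Y, which binds CCAAT boxes, and with Sp1, which binds GC boxes.

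The promoters of 3 members are printed: that of Hmgcs1 because it holds the sterol regulatory element, and those of Idi1 and Dhcr7 because both G-CSF signals of these genes lay below both PBS signals. The RefSeq windows of build GRCm38.p6 hold the 250 bases before an annotated start, 5′ to 3′ along the gene. Capitals mark TCACNCCAC (the sterol regulatory element), CCAAT (NF-Y) and GGGCGG (Sp1), searched on both strands, and overlapping matches were counted.
Hmgcs1, chr13:119690101-119690350, plus strand: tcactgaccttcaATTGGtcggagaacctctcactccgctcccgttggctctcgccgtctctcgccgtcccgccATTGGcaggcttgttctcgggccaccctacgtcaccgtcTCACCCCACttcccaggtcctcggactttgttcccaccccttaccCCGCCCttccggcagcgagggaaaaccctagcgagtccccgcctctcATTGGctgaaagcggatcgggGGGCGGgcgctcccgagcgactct
Idi1, chr13:8885356-8885605, plus strand: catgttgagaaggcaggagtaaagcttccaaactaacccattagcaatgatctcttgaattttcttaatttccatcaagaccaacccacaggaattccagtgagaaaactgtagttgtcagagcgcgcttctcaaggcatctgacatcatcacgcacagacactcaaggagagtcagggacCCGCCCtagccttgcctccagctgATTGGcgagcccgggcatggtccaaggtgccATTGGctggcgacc
Dhcr7, chr7:143829964-143830213, plus strand, the window with most matches of the 3 listed for this gene: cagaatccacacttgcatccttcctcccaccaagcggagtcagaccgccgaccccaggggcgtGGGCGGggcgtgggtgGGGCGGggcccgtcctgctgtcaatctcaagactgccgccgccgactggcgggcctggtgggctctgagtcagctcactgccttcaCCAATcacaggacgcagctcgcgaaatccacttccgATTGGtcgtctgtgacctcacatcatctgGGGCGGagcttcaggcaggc
The sterol element was found in the Hmgcs1 window, with its first base 137 bases before the start, and in 1.05 percent of all 32851 windows. CCAAT was found in 5 of 7 windows of the members, against 33.8 percent of all windows, and GGGCGG in 6 of 7, against 32.7 percent. Windows were matched for 5 of the 7 genes, and Fdps and Sqle were not matched. The Hmgcs1 window held 3 CCAAT boxes, the Idi1 window 2 and the Dhcr7 window 2. A match describes the letters of the window and says nothing about binding in these samples.

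The arrays differed in ways that touch these genes. Hepatocyte markers were abundant throughout: all 9 matched markers of 10 listed lay above background on each array, and none was near 0. Their summed signal was 121951 in PBS replicate 1 and 250428 in PBS replicate 2, against 216693 and 195745 in G-CSF replicates 1 and 2. Albumin (Alb), near the top of the scale, had 43301 to 52315. Hpx, the marker next in mean signal, read 24550 and 41701 on the PBS arrays, against 37455 and 34168 after G-CSF. PBS replicate 1 also held T cell and thymocyte transcripts (summed signal 38974 over 8 genes, against 604 to 679 elsewhere, with Rag1 at 6016 there and 1.61 to 2.20 elsewhere) and more transcripts of dividing cells (94859 over 9 genes, against 8803 in PBS replicate 2 and 22651 and 27356 with G-CSF). Dntt, of the T cell and thymocyte list, read 20056 on PBS replicate 1 and 17.2 to 94.0 elsewhere. Neutrophil markers summed to 247242 and 216105 with G-CSF and to 25770 and 8120 with PBS. Macrophage markers summed to 26739 in PBS replicate 1 and 47835 to 60267 elsewhere, and Marco and Timd4, named after their values were seen, lay below background on each array. The 3′ to 5′ ratio of the Gapdh control, a measure of RNA integrity, was 15.7 and 14.8 on the PBS arrays, against 20.2 and 19.1 after G-CSF. For the Actb control it was 11.2 and 9.88, against 12.6 and 13.7. The signal of both controls was thus weighted strongly to the 3′ end on every array. The part of these differences in the results below was not tested. Values relative to the hepatocyte markers are also given, but they do not address the T cell, dividing-cell or neutrophil transcripts. In such bulk RNA, fewer cells of a type and less RNA per cell cannot be told apart.

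Signals are MAS5 values on a linear scale. A difference is the mean log2(signal + 23) of the G-CSF arrays less that of the PBS arrays, with the standard error of the fit across all genes (SE, n = 2 arrays per group). Where a gene has several probe sets, the brightest on average stands for it. The question was whether transcripts of the route differed between the groups. PBS replicate 2 had the highest signal of the 4 arrays for 7 of 7 genes, against 28.4 percent of all genes tested. This was not particular to them. It was also the highest array for 8 of 9 hepatocyte markers, 9 of 10 genes of fatty acid synthesis and 6 of 7 other genes from lanosterol to cholesterol. For the other mevalonate steps, sterol sensing and sterol removal it was the highest for 4 of 8, 7 of 12 and 7 of 11. Both G-CSF arrays lay below both PBS arrays for 3 genes, Idi1, Sqle and Dhcr7, against 12.1 percent of all genes, and above both for 0 of 7, against 18.6 percent. The difference was below 0 for 6 of 7 genes, against 44.1 percent of all genes. The median difference of the 7 genes was −0.55, against 0.07 over all 12187 genes tested. With limma and Benjamini-Hochberg adjustment 0 of 7 passed at 0.05, as did 0 percent of all genes in either direction. At an unadjusted p under 0.05 there were 2 of 7, both lower, against 0.386 percent of all genes that were lower and 3.13 percent that were higher. The smallest two-sided p that an exact permutation of 2 against 2 arrays can reach is 0.333.

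**Figure D1:**
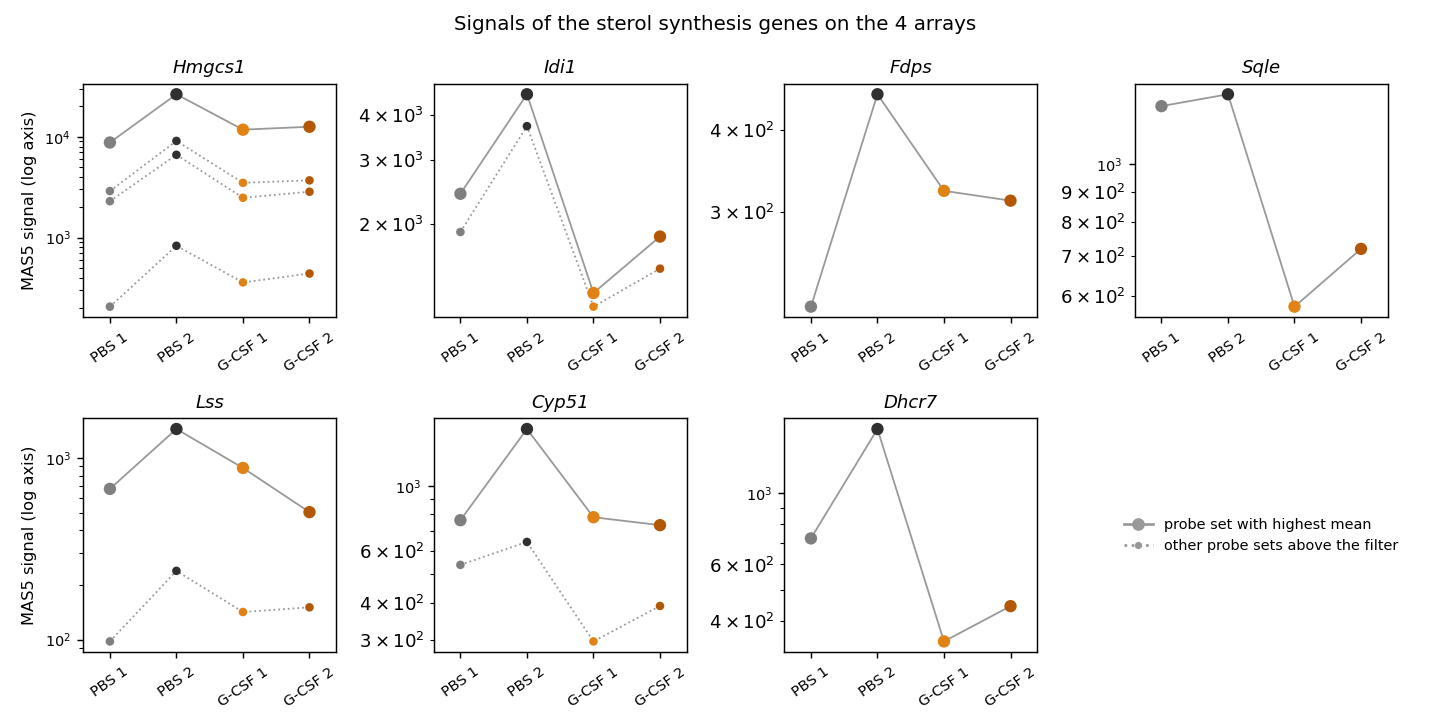
MAS5 signal (log axis) of each gene on the 4 arrays, with the probe set of highest mean as large points on a solid line and the other probe sets above the filter as small points on dotted lines; lines only join points of a probe set. PBS replicate 2 is highest in all 7 panels, and both G-CSF arrays lie below both PBS arrays for Idi1, Sqle and Dhcr7.

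Hmgcs1, Idi1 and Fdps act early in the route, and differences between genes were not tested. Hmgcs1, the cytosolic synthase that makes HMG-CoA, read 8769 on PBS replicate 1 and 26378 on PBS replicate 2, and 11754 and 12562 on the G-CSF arrays. The G-CSF arrays thus lay close together and between the PBS arrays, which were 3.0-fold apart. Its difference was −0.32 ± 0.56 (adjusted p = 0.988), with a 95% interval of −1.76 to 1.11. The other 3 Hmgcs1 probe sets above the filter placed the 4 arrays in the same order, with differences of −0.07 to −0.55. Idi1, the isomerase that interconverts the isoprenoid building blocks, read 2419 and 4559 on the PBS arrays and 1286 and 1842 on the G-CSF arrays. Both G-CSF signals were below both PBS signals, by 2.14-fold on average (−1.10 ± 0.45, unadjusted p = 0.0580, adjusted p = 0.988). Its other probe set gave −0.99 ± 0.45, with 1896 and 3720.4 against 1178 and 1501. Fdps, which joins the units to farnesyl diphosphate, read 214 and 454 on the PBS arrays, against 323 and 312 after G-CSF. The G-CSF arrays again lay between the PBS arrays, and the difference was 0.02 ± 0.45 (adjusted p = 0.998; 95% interval −1.13 to 1.16). Its direction turns with the scaling, to −0.06 with quantile normalization, −0.04 with median centring and −0.20 relative to the hepatocyte markers. The second Fdps probe set stayed at or below 3.31 on each array, far under background.

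Sqle and Lss act where the route commits to sterols. Sqle, the monooxygenase that epoxidises squalene, read 1254 and 1313 on the PBS arrays and 576 and 720.5 on the G-CSF arrays. It was the member on which the PBS arrays were closest, 1.05-fold apart, and both G-CSF arrays were lower. The difference was −0.97 ± 0.33, a 1.96-fold lower level (95% interval −1.81 to −0.13, unadjusted p = 0.0309, adjusted p = 0.988). Lss, which closes oxidosqualene to lanosterol, read 677 and 1446 on the PBS arrays, against 883 and 504 after G-CSF. The groups overlapped, and the G-CSF arrays were farther apart on this gene than on the other members (replicate 2 minus replicate 1, −0.78 on the log2 scale). Its difference was −0.55 ± 0.52 (adjusted p = 0.988) on a probe set whose suffix (_s_at) marks probes that may be shared with other transcripts. A second Lss probe set, with 97.8 and 239 against 142 and 151, gave −0.07 ± 0.49, and its PBS replicate 1 signal was below background.

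Cyp51 and Dhcr7 modify the sterol ring. Cyp51, the demethylase of lanosterol, read 764 and 1557 on the PBS arrays, against 782 and 735 after G-CSF, so that the G-CSF arrays lay on either side of PBS replicate 1 and below PBS replicate 2. The difference was −0.51 ± 0.44 (adjusted p = 0.988). Another Cyp51 probe set separated the groups, with 539 and 644.5 against 296 and 391, and a difference of −0.75 ± 0.34 (unadjusted p = 0.0739, adjusted p = 0.983 over probe sets). Dhcr7, the reductase of the last step to cholesterol, read 723 and 1580.2 on the PBS arrays, against 346 and 445 after G-CSF. Both G-CSF signals were below both PBS signals, and the mean was 2.63-fold lower (−1.39 ± 0.48, 95% interval −2.61 to −0.18, unadjusted p = 0.0316, adjusted p = 0.988). Its difference was the largest of the 7 in the fit of all 4 arrays.

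Over all 17 probe sets of the 7 genes, 13 passed the filter on low values and 12 were above background on all 4 arrays. The highest signal was on PBS replicate 2 for 13 of the 13 that passed, against 27.9 percent of the 19947 probe sets tested. Both G-CSF arrays lay below both PBS arrays for 5 of the 13 (Idi1 2, and Sqle, Cyp51 and Dhcr7 1 each), against 13.6 percent. In the fit of probe sets 0 of 13 passed, as did 0 percent of all in either direction. The 4 that did not pass the filter (Hmgcs1, Fdps, Lss and Cyp51, 1 each) had signals of at most 129 on any array.

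The differences depended on the PBS array taken. These comparisons share the G-CSF arrays and are given side by side. Against PBS replicate 2 alone, 7 of 7 genes were lower on both G-CSF arrays (37.5 percent of all genes), and 6 of 7 were lower by at least 2-fold (2.46 percent of all genes). Of the hepatocyte markers 8 of 9 were lower on both, and 1 of 9 by at least 2-fold. These counts were 10 and 7 of 10 for fatty acid synthesis, and 6 and 2 of 7 for the other lanosterol steps. They were 5 and 0 of 8 for the other mevalonate steps, 10 and 3 of 12 for sterol sensing, and 7 and 0 of 11 for sterol removal. Dhcr7 was 3.86-fold lower, Idi1 2.93-fold, Hmgcs1 2.17-fold, Lss 2.13-fold, Cyp51 2.02-fold and Sqle 2.0-fold, while Fdps was 1.40-fold lower. Against PBS replicate 1 alone, 3 of 7 were lower on both G-CSF arrays (36.7 percent of all genes) and 0 of 7 by at least 2-fold (11.1 percent of all genes). Sqle was then 1.91-fold lower, Dhcr7 1.79-fold and Idi1 1.56-fold. Lss and Cyp51 differed from PBS replicate 1 by −0.02 and −0.01 on the log2 scale, and Hmgcs1 and Fdps, above it on both G-CSF arrays (52.1 percent of all genes), were 1.38-fold and 1.43-fold higher. The median of the 7 genes was −1.09 against PBS replicate 2 and −0.02 against PBS replicate 1, and over all genes it was 0.00066 and 0.19.

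**Figure D2:**
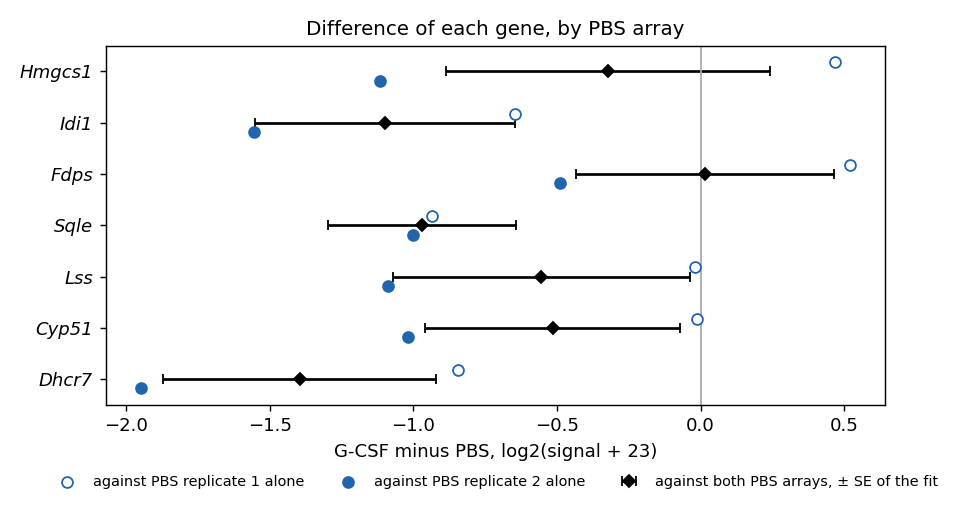
Difference of each gene in log2(signal + 23), the G-CSF mean less the PBS level, against both PBS arrays (diamonds, ± SE of the limma fit, n = 2 arrays per group) and against each PBS array alone (open and filled circles). The 2 circles nearly coincide for Sqle (−0.94 and −1.0) and lie on both sides of 0 for Hmgcs1 (0.47 and −1.12) and Fdps (0.52 and −0.49).

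A fit that leaves out a PBS array takes its spread from the G-CSF arrays and assumes that the lone PBS array varies like them. Without PBS replicate 1, limma called 3 of 7 genes lower, Dhcr7 (adjusted p = 0.0146), Hmgcs1 (adjusted p = 0.0173) and Idi1 (adjusted p = 0.0259), against 1.45 percent of all genes, and 0 higher, against 2.78 percent. Cyp51 (adjusted p = 0.0538) and Sqle (adjusted p = 0.0806) did not pass. Without PBS replicate 2, Sqle (adjusted p = 0.0229) and Dhcr7 (adjusted p = 0.0463) were called lower, against 15.9 percent of all genes, and Hmgcs1 was called higher (adjusted p = 0.0497), against 22.6 percent. Dhcr7 was thus the member called lower in both of these fits, as were 7 of 12187 genes (0.0574 percent). Hmgcs1 was called in opposite directions. Without G-CSF replicate 1 or without G-CSF replicate 2, limma called 0 of 7 genes (0 percent of all genes lower in either fit, and 0.0492 and 0.181 percent higher), and the Dhcr7 difference was −1.22 and −1.57.

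Signals were also set against the hepatocyte markers of the same array, a comparison chosen after the data were seen. The median of the 9 markers, centred over the arrays, was −0.84 on PBS replicate 1, 0.63 on PBS replicate 2, and 0.21 and 0.01 on the G-CSF arrays, and it was subtracted from every gene. This moved the median difference of all genes from 0.07 to −0.15. It raised RNA of every cell type in PBS replicate 1 alike, including that of the T cells and dividing cells found there. On that scale both G-CSF arrays lay below both PBS arrays for 6 of 7 genes, against 4.09 percent of all genes, and above both for 0 of 7, against 9.67 percent. The median difference of the 7 was −0.77. For Dhcr7 the values were 10.38 and 10.01 on the PBS arrays, against 8.31 and 8.86 after G-CSF. Idi1 had 12.09 and 11.53 against 10.14 and 10.85, and Sqle 11.16 and 9.75 against 9.01 and 9.52. Hmgcs1, Lss and Cyp51, whose groups overlapped on the deposited scale, were separated here by gaps of 0.34, 0.28 and 0.44. These gaps rest on the median of markers that differed unequally between the PBS arrays. Alb differed least (43301 and 46068) and Cyp1a2 most (1648 and 11870), both named after their values were seen. Whether the gaps hold with other markers was not tested. Fdps still overlapped, with 8.73 and 8.27 against 8.22 and 8.37. By limma on these values 0 of 7 passed, as did 0 of 12187 genes. At an unadjusted p under 0.05 there was 1 of 7, Dhcr7, lower, against 0.0246 percent of all genes that were lower and 1.04 percent that were higher. Its difference was −1.61 ± 0.66 (limma, unadjusted p = 0.0427, adjusted p = 0.9999). Of the hepatocyte markers themselves 1 of 9 was lower and 2 of 9 were higher without overlap. The members were not alone in lying lower on this scale: so did 4 of 7 other genes from lanosterol to cholesterol, 4 of 10 of fatty acid synthesis, 3 of 12 of sterol sensing, 1 of 8 of the other mevalonate and isoprenoid steps and 1 of 11 of sterol removal.

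**Figure D3:**
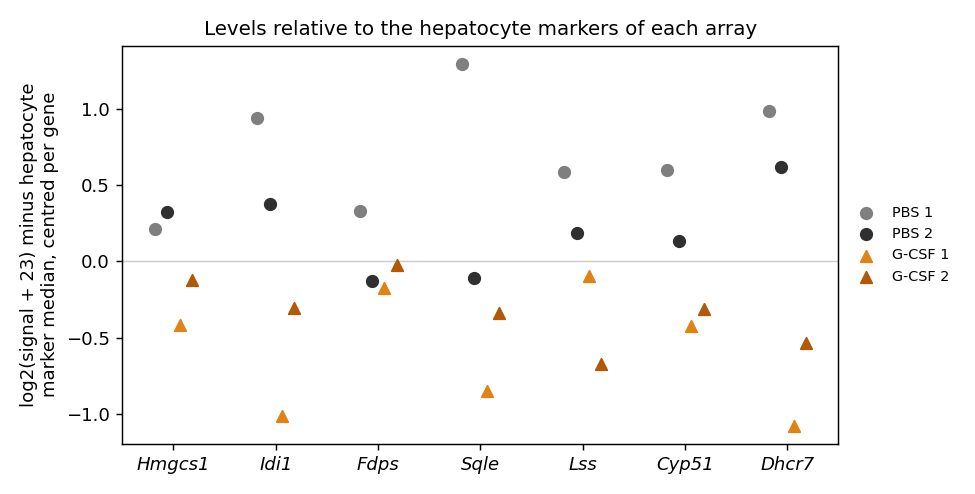
Level of each gene, log2(signal + 23), minus the hepatocyte marker median of the same array and centred over the 4 arrays. Circles are PBS arrays and triangles G-CSF arrays; the triangles lie below both circles for 6 of 7 genes and overlap them for Fdps, with the widest gap (1.16) for Dhcr7.

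Other genes of sterol and lipid metabolism were described from lists. Of 48 further genes tested in the lists of the route, its regulation, fatty acid synthesis and sterol removal, 0 passed limma with all 4 arrays (1 at an unadjusted p under 0.05, Insig2, lower). Among the other enzymes from acetyl-CoA to squalene and isoprenoids, 8 of 11 listed genes were tested, the median difference was −0.17 and 1 of 8 was lower without overlap, a share near the 12.1 percent of all genes. That gene was Coq2, which prenylates the ubiquinone ring (2748 and 2526 on the PBS arrays, 2000.4 and 1993 with G-CSF; −0.40 ± 0.32). Mvk, mevalonate kinase, read 17.5 and 84.3 on the PBS arrays, against 281 and 37.9 after G-CSF, below background on 3 arrays. Dhdds differed by 0.35 ± 0.37. Of the steps from lanosterol to cholesterol, 7 of 8 listed genes were tested, with a median of 0.01, whose sign turns with quantile normalization (−0.0030) and median centring (−0.05). Of these 0 of 7 were lower without overlap, and 4 of 7 relative to the hepatocyte markers. Tm7sf2, a sterol reductase, had 1014 and 3950.2 against 1919 and 1551 (−0.22 ± 0.69), and Hsd17b7 had 974 and 2025 against 1072 and 913 (−0.50 ± 0.46). Lbr, a sterol reductase that is also a nuclear envelope protein, went the other way between the PBS arrays, with 11588 and 1635 against 6736 and 5906.

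Genes of sterol sensing and SREBP processing had a median of −0.34 over 12 tested of 13 listed, and 6 of 12 were lower without overlap, against 12.1 percent of all genes. Relative to the hepatocyte markers the count was 3 of 12, with 1 higher, against 4.09 and 9.67 percent. Insig2, which encodes an INSIG protein, read 6245 and 7227 on the PBS arrays, against 3887 and 2959.8 after G-CSF (−0.98 ± 0.33, unadjusted p = 0.0301, adjusted p = 0.988). Like Dhcr7 it was called lower without PBS replicate 1 (adjusted p = 0.0450) and without PBS replicate 2 (adjusted p = 0.0183). Insig1, the other INSIG gene and itself a target of SREBP, had 1308 and 2252 against 1162 and 853 (−0.77 ± 0.42). Srebf2, which encodes the SREBP form that acts mainly on sterol genes, had 396 and 217 against 193 and 159 (−0.68 ± 0.43), highest in PBS replicate 1.

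Fatty acid synthesis genes, many of them also SREBP targets, had a median of −0.25 over 10 genes. Against PBS replicate 2 alone 7 of 10 were lower by at least 2-fold, and against PBS replicate 1 alone 0 of 10 were, with a median of 0.69. Fasn, fatty acid synthase, had 3113 and 5565 against 1765 and 3264 (−0.79 ± 0.49), Acly 13144 and 11233 against 9782 and 9692 (−0.32 ± 0.28), and Acaca 985 and 2175 against 1090.5 and 1037 (−0.45 ± 0.47). Genes of sterol efflux, esterification and bile acid synthesis had a median of 0.32 over 11 tested of 13 listed, with 0 lower and 2 higher without overlap (18.6 percent of all genes). Abca1, the cholesterol exporter, had 3196 and 6945 against 7234 and 7486 (0.64 ± 0.46), and Ch25h 198 and 298 against 320.1 and 372 (0.47 ± 0.37). Cyp7b1 differed by 0.59 ± 0.60. PBS replicate 1 was the lowest array for 11 of these 11 genes, for 8 of 10 of fatty acid synthesis, 5 of 7 of the lanosterol steps, 4 of 8 of the mevalonate steps and 5 of 12 of sterol sensing. It was the lowest for 2 of the 7 sterol synthesis genes, Hmgcs1 and Fdps, and for 47 percent of all genes.

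**Figure D4:**
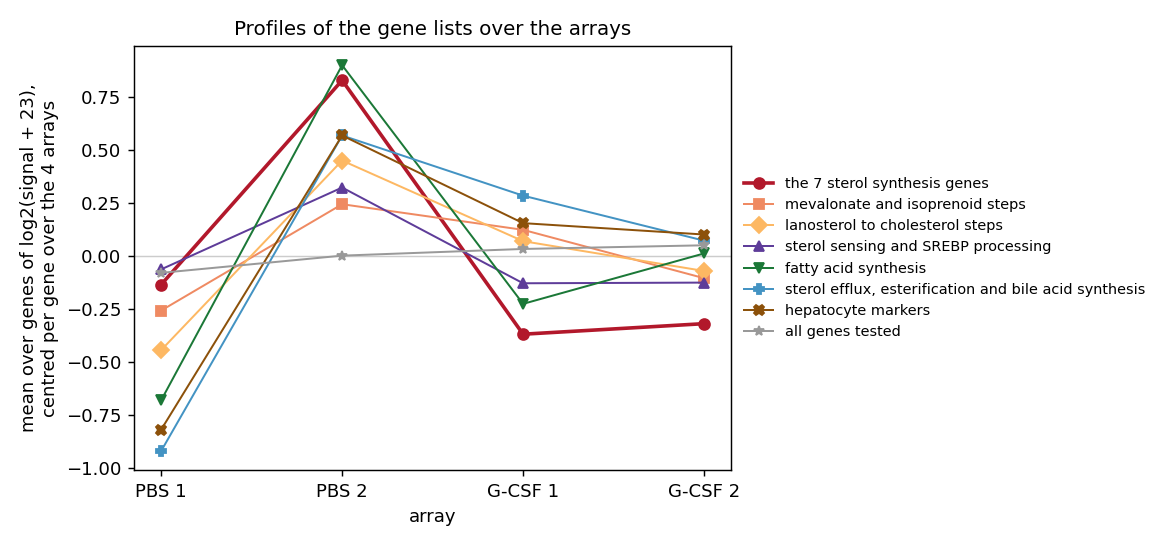
Mean level of each gene list on the 4 arrays, log2(signal + 23) centred per gene; lines only join the points of a list. The 7 sterol synthesis genes had −0.14 in PBS replicate 1, 0.83 in PBS replicate 2, and −0.37 and −0.32 with G-CSF, and the hepatocyte markers −0.82, 0.57, 0.15 and 0.10.

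The tested genes whose centred profile lay nearest to the mean profile of the 7 were Wdr45b, Cep126, Tpd52l2, Zfp580 and Calhm6, at root mean square differences of 0.05 to 0.12 over the 4 arrays. The members themselves lay 0.10 (Cyp51) to 0.37 (Dhcr7) from it. Wdr45b, for example, read 2711 and 5272 on the PBS arrays, against 2370.1 and 2575 after G-CSF. Cep126 was near the floor: it read 80.9 on PBS replicate 1 and 62.4 on G-CSF replicate 1, both below background. With 4 arrays such likeness describes these arrays only.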

How the data were processed

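Total RNA (40 ng) was labelled and hybridised to Affymetrix arrays, per the labels. The deposited values are linear signal intensity values per probe set that the authors made with MAS5, per the submitters' processing notes; its version was not given in the sources used here. On each array the mean without the top and bottom 2 percent was 500. Of 45101 probe sets, 34945 carry 1 gene symbol in the platform annotation, 932 several and 9160 none, and 64 are controls; 34741 were matched by Entrez ID. The deposited signals were taken to log2(signal + 23), with a pseudocount set from the median of all values, so that the fold of low genes is understated. Genes were represented by the probe set of highest mean and kept at a mean signal over 95.0. The groups' difference was fitted over 12187 genes by limma 3.58.1 (R 4.3.3; lmFit, eBayes with trend; 2 residual degrees of freedom), with Benjamini-Hochberg adjustment at 0.05. Background is the highest signal of 27 bacterial control probe sets, 106, 94.6, 86.4 and 63.0 on PBS 1, PBS 2, G-CSF 1 and G-CSF 2. The number of arrays and the spread between replicates limit the precision. In data simulated for this comparison over 12187 genes, 0 percent of 2-fold, 0.2 percent of 4-fold and 37.1 percent of 16-fold changes were called. The simulation gave both groups the pooled spread of each gene between replicates. In the data that spread was unequal (root mean square SD 0.82 for PBS and 0.29 for G-CSF). These shares thus include the difference between the PBS arrays and do not isolate the number of arrays.

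The members and lists were chosen with earlier results of these data known. The text names all members with every probe set, the 3 genes of smallest unadjusted p from each pathway list, the 2 of highest mean signal from marker lists where single markers are given, and the 5 genes of nearest profile. Other normalizations, pseudocounts, filters, probe set rules, variance models, a replicate block and leaving out each array were tried. Promoters come from RefSeq, GRCm38.p6. Tables used pandas 2.3.3 under Python 3.11.15, and figures matplotlib 3.10.9.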

Additional observations from a re-analysis of the deposited data

How the results depend on the processing

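In the alternatives compared here that kept all 4 arrays, 0 of the sterol synthesis genes and 0 of their probe sets passed. Of the other pathway lists 0 genes passed. The median of the sterol synthesis genes was −0.77 to −0.37. All 7 genes were tested, except with the 75th percentile filter, which kept 6. The probe sets tested numbered 13 in the main fit and 9 to 17 in the alternatives. Leaving out 1 array gave 0 to 3 of the 7 genes (3 without PBS replicate 1, all lower; 3 without PBS replicate 2, of which 2 lower), 0 to 6 probe sets (6 and 3), 0 to 18 of 48 genes of the other lists and a median of −1.09 to −0.019. In the other lists 9 genes were called without PBS replicate 1 (8 lower, 1 higher; all genes 1.45 and 2.78 percent) and 18 without PBS replicate 2 (4 lower, 14 higher; all genes 15.9 and 22.6 percent). The member probe sets called without PBS replicate 1 were all lower and belong to Hmgcs1, Idi1 and Dhcr7. Those called without PBS replicate 2 belong to Sqle and Dhcr7, lower, and Hmgcs1, higher. The probe set counts thus repeat the genes already called. The share of all probe sets called in these fits was not counted, so the probe set counts have no background to be read against. Dhcr7, Sqle, Idi1, Cyp51 and Lss stayed below 0 in each alternative, but Cyp51 and Lss came close to 0. Without PBS replicate 2 they were at −0.011 and −0.019. Lss was at −0.07 when probe sets with a suffix such as _s_at were left out. Hmgcs1 turned to 0.47 without PBS replicate 2 (−1.12 without PBS replicate 1). Fdps turned to −0.056 with quantile normalization, −0.045 with median centring and −0.20 with hepatocyte centring. With 1 array left out it ranged from −0.49 (PBS replicate 1) to 0.52 (PBS replicate 2), with −0.0074 when G-CSF replicate 1 was dropped. The median of the lanosterol steps turned to −0.0030 with quantile normalization, −0.050 with median centring, −0.0017 with 4 times the pseudocount, −0.15 with the mean of all probe sets and −0.21 with hepatocyte centring, and was −0.70 to 0.70 with 1 array left out (−0.09 without G-CSF replicate 1). Without PBS replicate 2 the medians of the fatty acid and mevalonate lists were 0.69 and 0.11, and without PBS replicate 1 that of the efflux list was −0.40 (fatty acid −1.10 and mevalonate −0.34 there; efflux without PBS replicate 2, 1.04). The causes were not tested. Hepatocyte centring and array weights were chosen after seeing the data. The deviations of PBS 1 and G-CSF 1 had a correlation of −0.04, with 2 pairs. Because the PBS arrays differ so widely, this cannot show whether the shared replicate numbers pair the arrays. The fit with the replicate block called 0 of 7 genes, with a median of −0.55 and an adjusted p of 0.534 for Dhcr7 by limma. A fit with the replicate numbers crossed between the groups was also run, and its result is not given here.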

Other observations

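Besides Dhcr7 and Insig2, 5 of the 7 genes called lower by limma both without PBS replicate 1 and without PBS replicate 2 were Adk, Rdh10, Ifit3, Phlda1 and 2610316D01Rik, named after their values were seen. These fits share the G-CSF arrays and take no account of the larger spread between the PBS arrays. Rdh10, which oxidises retinol, read 1254 and 2187 on the PBS arrays, against 728 and 475 after G-CSF (−1.46 ± 0.44 with all 4 arrays, adjusted p = 0.988). Adk, adenosine kinase, had 26727 and 31746 against 19483 and 17579 (−0.65 ± 0.26, adjusted p = 0.988). Ifit3, an interferon-induced gene, had 579.9 and 765 against 241 and 284 (−1.28 ± 0.34, adjusted p = 0.945). With all 4 arrays 0 of 12187 genes passed, and 429 had an unadjusted p under 0.05.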
